A study of Mus musculus and Homo sapiens with 12 samples.

Results

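Tight junction and desmosome genes were examined in 2 models of liver-metastasizing pancreatic ductal carcinoma. The members were 44 gene symbols chosen by name, compared in capitals with the first column of each table. All 44 were among the 23201 genes of the mouse table and 41 among the 18190 genes of the human table, where CLDN2, CLDN5 and DSG3 were not found. RNA was sequenced from 12 samples in 4 groups of 3 biological replicates. KPC LM2 is a 2nd-generation liver-metastatic derivative of KPC, a mouse pancreatic cancer line, and the parental KPC line was its comparator. PANC1 LM3 is a 3rd-generation liver-metastatic derivative of PANC1, an established human pancreatic cancer line, and the parental PANC1 line was its comparator. The genotype is given as WT for every group, and no allele, agent or host strain is stated. In all 4 groups 500000 cells were placed in the spleen on day 1, and RNA came from liver tumours taken on day 21, although the sample titles speak of cells. The labels give 1 derivative per parental line and do not say whether it is a clone.

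Tight junctions seal the space between epithelial cells. Claudins form the paracellular strands, occludin and its MARVEL-domain relatives join them, zonula occludens proteins and cingulins tie them to actin, and the PAR and Crumbs complexes place the belt at the apical side. Desmosomes are spot junctions in which desmoglein and desmocollin cadherins bind plakoglobin, plakophilins and desmoplakin, which anchor keratin filaments. In the pancreas the duct epithelium has both, and ductal carcinomas keep or lose them to differing degrees.

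The values were read from 1 comparison table per model made by the authors. A table gives each gene's mean normalised count over libraries, the log2 fold change with its standard error (SE), and a Wald test p adjusted over all genes tested in that table. Values of single libraries are not listed, which leaves depth and the overlap of replicates unknown. The header does not name the group in the numerator, so every sign below is given as listed and is assigned neither to the liver-metastatic derivative nor to the parental line. Errors after ± are the listed SE, intervals are 95% intervals on the log2 scale, and a gene was called at an adjusted p under 0.05. For genes whose mean normalised count was at least 64, the median listed SE was 0.243 in KPC and 0.090 in PANC1, so a change of a given size was called more readily in PANC1. RNA was bulk, so fewer cells of a type and less RNA per cell cannot be told apart.

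The authors' deposited table for KPC gave mean normalised counts of 6663 for the duct keratin gene Krt19 and 7743 for the E-cadherin gene Cdh1. Of host markers in that deposited table, 10 endothelial genes summed to 153 and 10 leukocyte genes to 126, where 0 endothelial genes and 1 leukocyte gene, negative, were called. The 10 fibroblast and stellate genes summed to 208 in the authors' deposited table and were all listed as negative, with a median of -1.64 and 2 called. Endothelial genes were listed as negative in 9 of 10 cases (median -1.14) and leukocyte genes in 8 of 9 tested (median -1.32). Median counts of these 3 lists were 15.9, 12.8 and 9.47. Of all 7258 KPC genes tested below 16, 89.6% were listed as negative, with a median of -1.43. Over all KPC genes tested 10.4% were called. Of the 9 duct genes 2 were called positive, Krt7 at 1.18 ± 0.18 among them, and of 10 hepatocyte genes tested 1 was called negative, in the authors' deposited table. Albumin was at 10.4 in the authors' deposited table, while Apob, of the same hepatocyte list, was at 9009 and not called (-0.13 ± 0.32). Genes of PANC1 carry human symbols, and the human build named is hg19. The symbols come with that build, so the values there do not tell reads of host cells from those of tumour cells. Over all PANC1 genes tested 52.5% were called. In the authors' deposited table for PANC1, 5 of 10 endothelial markers were listed and summed to 26.8, with 1 of 4 tested called negative. Of 4 leukocyte genes tested there 1 was called positive (CD68, at 1.91 ± 0.07 with 1103 mean normalised counts) and 1 negative, with a median of -0.13 in the authors' deposited table. Calls in that deposited table were 2 positive and 1 negative of 6 hepatocyte genes, 1 positive and 0 negative of 7 fibroblast genes, 0 positive and 1 negative of 4 mesothelial genes, and 1 positive and 3 negative of 6 duct genes, KRT19 with 15012 mean normalised counts among the negative. The part that host cells play in the junction values was not tested.

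Between KPC LM2 and KPC samples, 10 of the 42 members tested were called, 7 positive and 3 negative. The background over all 20050 genes tested was 10.4% called, with 5.77% positive and 4.6% negative. The called members were 2 claudins on opposite sides, 3 of the 4 desmosomal cadherins, also on both sides, the scaffold gene Tjp3, and Marveld2, Patj, Perp and Epcam. With an absolute log2 fold change over 1 in addition there were 7, 4 positive and 3 negative, where 6.5% of all genes met both conditions, 2.4% positive and 4.1% negative. At 64 mean normalised counts or more, 9 of 31 members were called, against 12.7% of genes. The remaining 32 tested members, among them the core components Tjp1, Ocln, Dsp and Jup, did not pass. The median log2 fold change of the 42 was 0.15, against -0.08 over all genes tested. With genes at 64 or more alone it was 0.27, against 0.22.

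Claudin-4 and the adhesion protein EpCAM, which binds claudins and steadies them at the membrane, had the smallest adjusted p-values among the negative KPC members. Cldn4 was listed at -1.99 ± 0.28 (Wald test adjusted p = 1.58e-10) and averaged 98.8 normalised counts, by the authors' deposited table. Taken with 3 libraries a group, that mean and fold imply about 158 in one group and 39.7 in the other. Epcam stood at -1.14 ± 0.28 (Wald test adjusted p = 0.0016) in the authors' deposited table, with 523.9. Cldn4 and Epcam kept their sign and their call after recentring and after subtraction of the level trend.

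On the positive side Cldn2, the claudin that forms cation- and water-permeable channels, was at 0.93 ± 0.19 with 2132 mean normalised counts in the authors' deposited table (Wald test adjusted p = 4.67e-05). Tjp3, which encodes the zonula occludens protein ZO-3, had the largest positive fold change of the members, at 2.33 ± 0.43, or 5.02-fold, in the authors' deposited table (Wald test adjusted p = 5.23e-06). Its implied levels are 137 and 27.3. Tricellulin, the MARVEL protein of the corners where 3 cells meet, is encoded by Marveld2, which was at 0.91 ± 0.31, and the Crumbs complex gene Patj was at 0.55 ± 0.19, both in the authors' deposited table. Their Wald test adjusted p-values of 0.039 and 0.041 lay just inside the threshold.

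The sequence upstream of the start is shown for the 2 called mouse members of each sign with the largest absolute Wald statistic, leaving out the desmosomal cadherin genes, so that the promoters of genes with opposite signs can be read side by side. They were taken from the RefSeq promoter table of GRCm38.p6, an older build than the mm39 named for the authors' alignment, and each runs from 250 bases before the start to the base before it. Cldn4 is at chr5:134946935-134947184 on the minus strand, Epcam at chr17:87635729-87635978 on the plus strand, Tjp3 at chr10:81291582-81291831 on the minus strand for the first of its 2 listed starts, and Cldn2 at chrX:139800558-139800807 on the plus strand. Capitals mark CACCTG on either strand, the E-box that SNAI and ZEB repressors bind.
Cldn4: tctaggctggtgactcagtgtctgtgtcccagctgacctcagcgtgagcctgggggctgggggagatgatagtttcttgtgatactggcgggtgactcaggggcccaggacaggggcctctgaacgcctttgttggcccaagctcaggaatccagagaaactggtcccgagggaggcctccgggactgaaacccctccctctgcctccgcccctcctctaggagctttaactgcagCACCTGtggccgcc
Epcam: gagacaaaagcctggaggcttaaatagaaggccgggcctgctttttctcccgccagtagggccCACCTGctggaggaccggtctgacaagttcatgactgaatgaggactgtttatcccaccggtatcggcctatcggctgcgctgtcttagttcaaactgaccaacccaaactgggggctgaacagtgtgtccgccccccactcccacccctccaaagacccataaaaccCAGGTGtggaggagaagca
Tjp3: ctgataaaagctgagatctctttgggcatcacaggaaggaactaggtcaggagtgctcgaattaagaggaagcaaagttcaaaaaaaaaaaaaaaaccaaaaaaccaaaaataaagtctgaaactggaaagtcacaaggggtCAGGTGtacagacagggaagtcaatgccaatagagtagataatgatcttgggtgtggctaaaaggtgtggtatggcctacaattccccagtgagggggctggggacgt
Cldn2: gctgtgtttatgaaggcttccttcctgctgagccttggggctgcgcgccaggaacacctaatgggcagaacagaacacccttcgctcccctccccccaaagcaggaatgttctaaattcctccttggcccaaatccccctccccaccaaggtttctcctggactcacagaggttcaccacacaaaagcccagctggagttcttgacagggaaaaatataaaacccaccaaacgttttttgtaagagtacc
The match begins 14 bases before the start in Cldn4, 187 and 19 bases before it in Epcam, and 108 bases before it in Tjp3, where the window of the second listed start has one 17 bases before it, and Cldn2 has none in this window. Over all 32851 windows of this length 17.2% hold the E-box. Windows were found for 31 of the 44 members, and 15 of their 45 windows hold it. Some members have several windows, which can overlap, as those of Marveld2 do, so these are counts of windows and not of genes. The grainyhead-like letters AACCGGTT, which do not overlap the E-box, are in 0 of the 45 member windows and in 0.116% of all windows. These matches describe letters only, and no binding was measured.

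Desmosomal cadherin genes were called in 3 of 4 cases in KPC, while none of the 8 plaque protein genes was. Over all KPC genes tested 10.4% were called. Dsg2 and Dsc2, the desmoglein and desmocollin of simple epithelia, had log2 fold changes of 1.27 ± 0.21 and 1.68 ± 0.34 in the authors' deposited table (Wald test adjusted p = 1.82e-07 and 7.37e-05). Dsc3, a desmocollin of stratified epithelia, was on the other side at -1.91 ± 0.64 in the authors' deposited table (Wald test adjusted p = 0.034), at 16.4 mean normalised counts. Dsg3, its desmoglein counterpart, was at -0.36 ± 0.62 with 13.0 and did not pass in the authors' deposited table. For the plaque, the authors' deposited table listed desmoplakin, Dsp, at -0.07 with an interval of -0.46 to 0.31, and plakoglobin, Jup, at 0.39 with an interval of -0.09 to 0.87. The plaque gene nearest to the threshold was the periplakin gene Ppl, at 0.57 ± 0.21 (Wald test adjusted p = 0.061) in the authors' deposited table. Perp, a p53- and p63-regulated desmosomal membrane protein gene, was called at 1.00 ± 0.31 (Wald test adjusted p = 0.022) in the authors' deposited table.

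**Figure D1:**
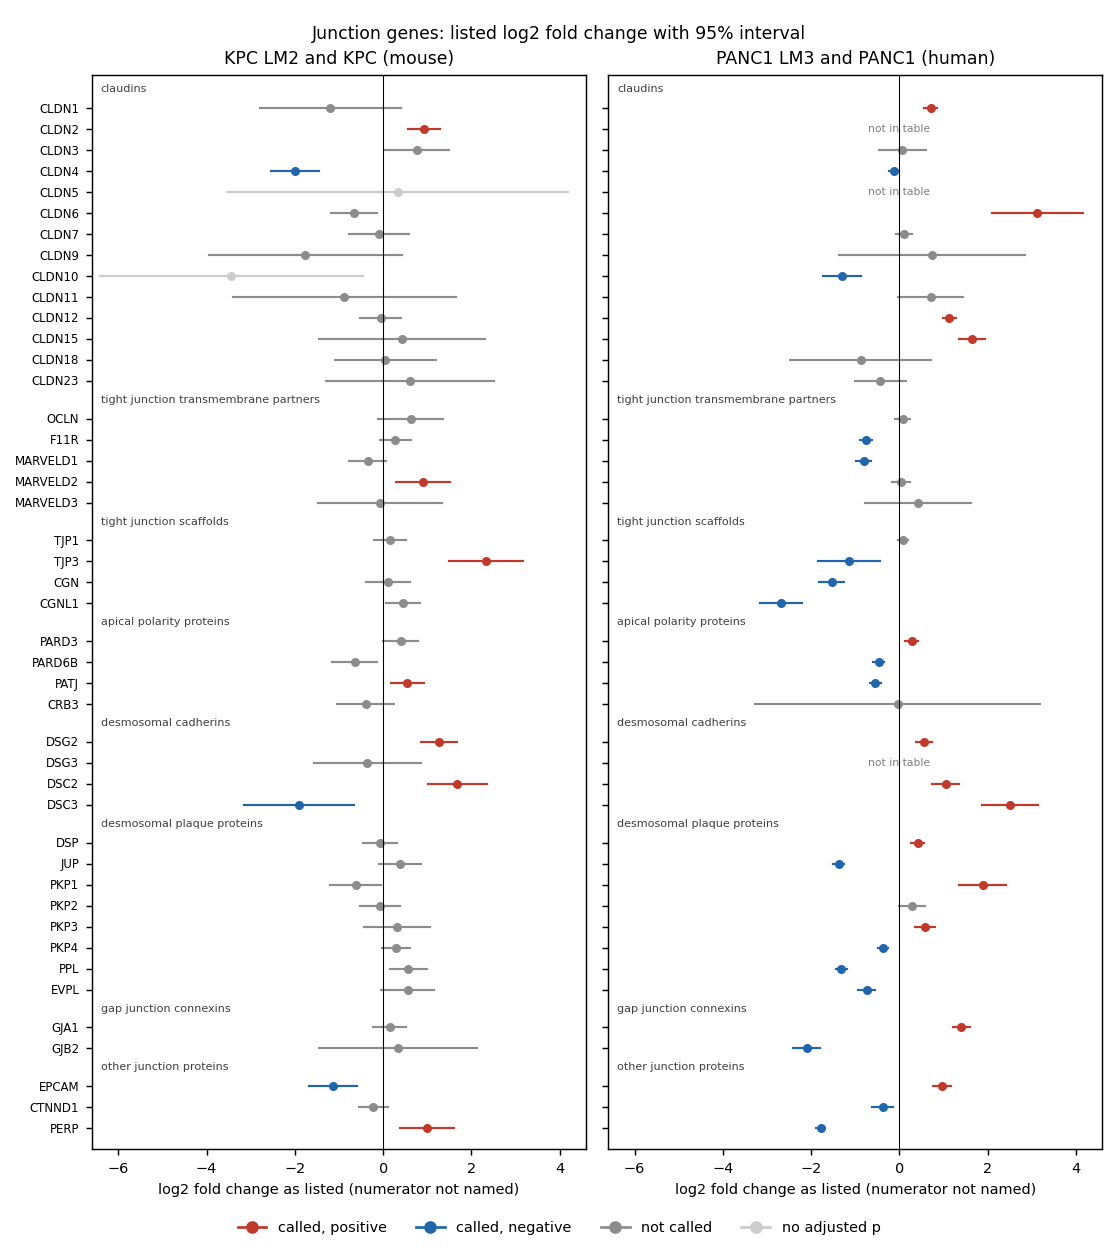
Listed log2 fold changes (points) with 95% intervals (lines) of the members in the KPC table (left) and the PANC1 table (right), grouped by role and coloured by call. In KPC, Cldn4 and Epcam lie left of 0 and Tjp3, Dsg2 and Dsc2 right of it, whereas in PANC1 the scaffolds TJP3, CGN and CGNL1 lie left and the 3 desmosomal cadherins right.

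Fold changes in KPC went with expression level, which touches the weaker calls. In the authors' deposited table, the 7258 tested genes below 16 mean normalised counts had a median of -1.43 on the log2 scale, against 0.22 for genes at 64 or more. With a running median over genes of like level subtracted, 4 members stayed positive and 4 were negative. In that setting Dsc3 was at -0.99 (Wald test adjusted p = 0.476), Marveld2 at 0.75 (adjusted p = 0.15), Perp at 0.74 (adjusted p = 0.165) and Patj at 0.31 (adjusted p = 0.435), so these calls were lost. Cldn6, at -0.66 ± 0.26 in the authors' deposited table, and the polarity gene Pard6b, at -0.65 ± 0.26, had Wald test adjusted p-values of 0.081 and 0.082 as listed and 0.016 and 0.021 after the subtraction. With fold changes recentred on genes at 64 or more, a shift of 0.22, 4 members were positive and 6 negative. The plakophilin gene Pkp1 then passed too (Wald test adjusted p = 0.046), at -0.84, against -0.62 in the authors' deposited table. Cldn2, Cldn4, Tjp3, Dsg2, Dsc2 and Epcam stayed called under both.

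**Figure D2:**
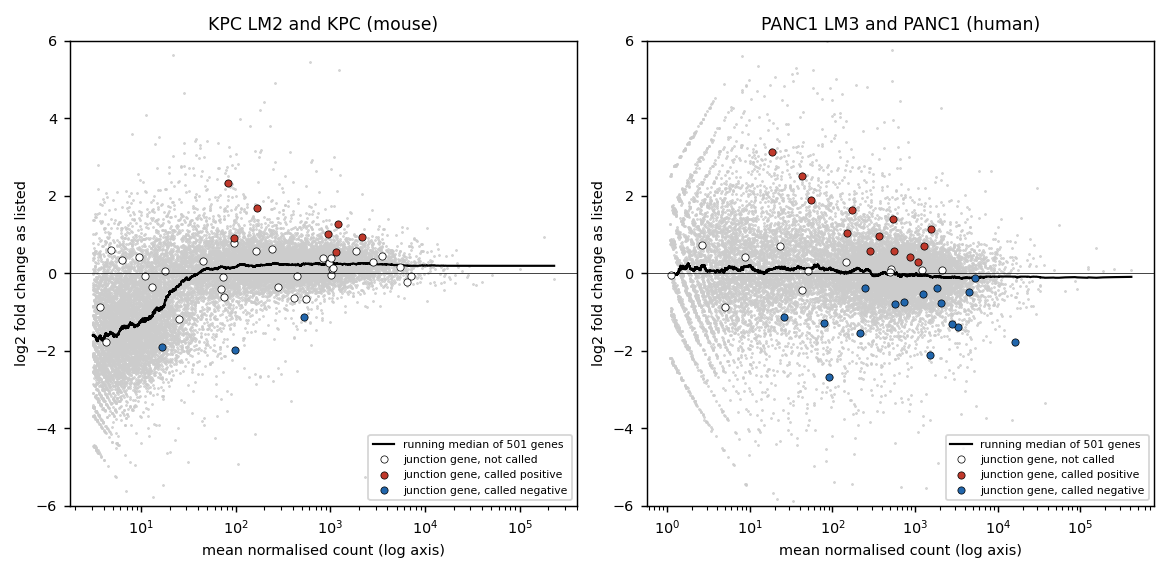
Listed log2 fold change against mean normalised count (log axis) in the KPC table (left) and the PANC1 table (right): grey dots are all genes tested within 6 units of 0, the black line is the running median of genes of like level, and larger points are the members. The line lies below 0 at low counts in KPC and near 0 throughout in PANC1, and Dsc3, at 16.4, is the called KPC member with the lowest count.

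Levels per length could be compared in the mouse model alone, with exonic lengths from the GENCODE annotation of GRCm38. The means over libraries of KPC LM2 and KPC together put 3 claudins ahead of the others. In the authors' deposited table, divided by exonic length, Cldn2 had 641 mean normalised counts per kb, Cldn6 319 and Cldn12 240.5. Cldn3, Cldn4 and Cldn7 followed with 76.4, 54.4 and 37.8 per kb, and the other 8 claudins lay between 1.03 and 5.22 per kb, as derived from the authors' deposited table. The level of Cldn6, a claudin known from embryonic epithelium, was thus above that of Cldn4 per length, though Cldn4 was called and Cldn6 was not. Dsg2 and Dsc2 had 145 and 31.6 per kb from the authors' deposited table, against 3.04 and 1.87 for Dsc3 and Dsg3. No difference between neighbours in this order was tested, since no spread over libraries is listed for the means. Ctnnd1 shares 61.2% of its exonic bases with an overlapping annotated transcript, and no other member shares over 20%.

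**Figure D3:**
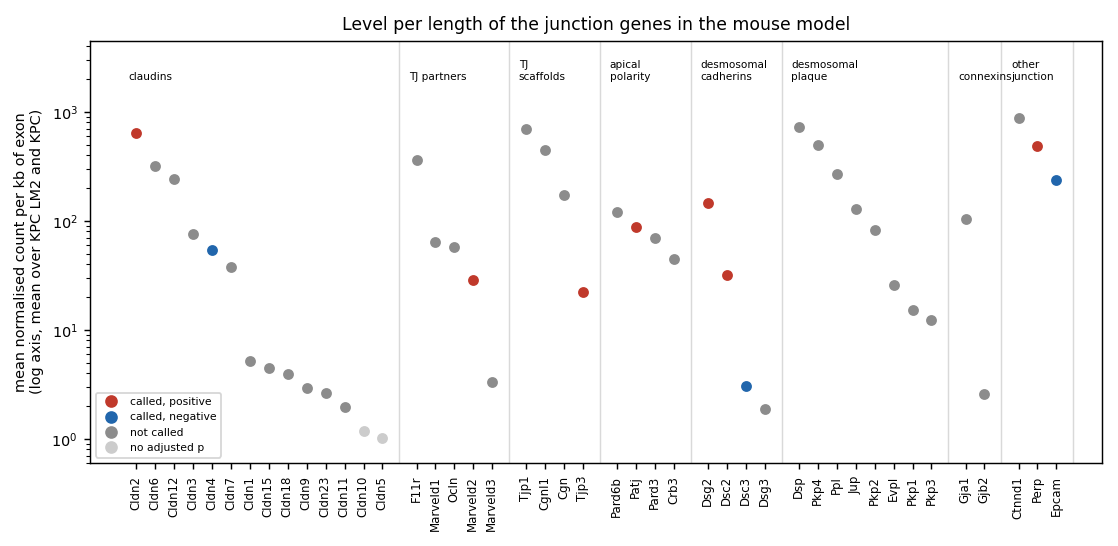
Mean normalised count per kb of exon (log axis) of each member in the mouse model, over KPC LM2 and KPC libraries together, ordered within its role and coloured by call. Cldn2, Cldn6 and Cldn12 lead the claudins, and Dsg2 and Dsc2 lie above Dsc3 and Dsg3.

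Between PANC1 LM3 and PANC1 samples, 29 of the 41 members were called, 13 positive and 16 negative. The background over all 17838 genes tested was 52.5% called, with 26.0% positive and 26.5% negative, so most genes of ordinary level pass in this table. An absolute log2 fold change over 1 in addition was listed for 15 members, 7 positive and 8 negative, where 15.5% of all genes met both conditions, 8.13% positive and 7.34% negative. At 64 mean normalised counts or more, 25 of 30 members were called, against 69.3% of genes. The median over the 41 was 0.07, against -0.0020 over all genes tested. By role, the 3 desmosomal cadherin genes tested were all called positive, and of 8 plaque genes 3 were called positive and 4 negative. Of 12 claudins 4 were called positive and 2 negative, or 50% called against 52.5% of all genes. Scaffolds had 3 negative calls of 4, with TJP1 not called, and membrane partners 2 negative of 5. Polarity genes had 1 positive and 2 negative of 4. Among the rest, EPCAM and GJA1 were positive, and PERP, CTNND1 and GJB2 negative.

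Tight junction scaffold genes were called negative in 3 of 4 cases in PANC1, where 26.5% of all genes tested were. CGNL1, encoding the cingulin-like protein paracingulin, was at -2.69 ± 0.24 and averaged 91.6 normalised counts in the authors' deposited table (Wald test adjusted p = 1.93e-27). Its implied levels are 159 in one group and 24.7 in the other, a 6.43-fold difference. Cingulin itself, CGN, was at -1.54 ± 0.14, and TJP3 at -1.14 ± 0.36 with 25.8 mean normalised counts, in the authors' deposited table. TJP1, which encodes the main zonula occludens scaffold ZO-1, was not called, at 0.08 with an interval of -0.03 to 0.19 in the authors' deposited table. After the level trend was subtracted TJP1 was at 0.19 and passed (Wald test adjusted p = 0.0025).

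Of the 5 membrane partners in PANC1, 2 were called, both negative, or 40% called against 52.5% of all genes. In the authors' deposited table F11R, the junctional adhesion molecule JAM-A, was at -0.76 ± 0.07 and MARVELD1 at -0.81 ± 0.09. Occludin (OCLN) was at 0.07 with an interval of -0.09 to 0.24, and MARVELD2 at 0.03 with an interval of -0.18 to 0.23, neither of them called in the authors' deposited table. Of the 4 polarity genes in PANC1 3 were called, or 75%, each with an absolute log2 fold change under 1. PATJ was at -0.55 ± 0.07, PARD6B at -0.47 ± 0.06 and PARD3 at 0.28 ± 0.07 in the authors' deposited table, all called, while CRB3 averaged 1.10 normalised counts and was not called.

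Claudins of PANC1 were positive in 4 cases and negative in 2 of the 12 tested, or 50% called against 52.5% of all genes. CLDN6 had the largest fold change, at 3.12 ± 0.53 (Wald test adjusted p = 1.57e-08), from 18.6 mean normalised counts in the authors' deposited table. That value implies about 33.3 in one group and 3.82 in the other, so it rests on few reads. CLDN15 was at 1.64 ± 0.15, CLDN12 at 1.14 ± 0.07 and CLDN1 at 0.71 ± 0.08 in the authors' deposited table, with 172, 1554 and 1278 mean normalised counts. CLDN10, a claudin of ion-selective pores, was on the other side at -1.30 ± 0.22 in the authors' deposited table. CLDN4 was at -0.12 ± 0.05 (Wald test adjusted p = 0.045) with 5355 mean normalised counts in the authors' deposited table, and it did not pass after recentring (-0.09, adjusted p = 0.16) or after the level trend was subtracted (adjusted p = 0.985). CLDN7, which pairs with EpCAM at the membrane, was at 0.10 with an interval of -0.09 to 0.29 in the authors' deposited table.

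The desmosome of PANC1 was divided. All 3 cadherin genes listed were positive in the authors' deposited table, DSC3 at 2.51 ± 0.32, DSC2 at 1.05 ± 0.15 and DSG2 at 0.57 ± 0.09. Over all genes tested 26.0% were called positive. Plakophilins PKP1 (1.89 ± 0.27) and PKP3 (0.57 ± 0.12) and desmoplakin, DSP (0.42 ± 0.08), were positive as well in the authors' deposited table. DSC3 and PKP1, with the largest of these fold changes, averaged only 42.4 and 54.7 normalised counts. JUP, encoding the plakoglobin that links those cadherins to desmoplakin, was at -1.38 ± 0.07 with 3312 mean normalised counts in the authors' deposited table (Wald test adjusted p = 1.97e-90). The plakins PPL and EVPL, which bind keratin filaments beneath the membrane, were at -1.32 ± 0.07 and -0.74 ± 0.10, and the p120-related PKP4 at -0.38 ± 0.06, in the authors' deposited table. PERP had the smallest adjusted p of the members at -1.79 ± 0.06 (Wald test adjusted p = 2.77e-218), with 16032.5 mean normalised counts in the authors' deposited table. The implied PERP levels are 24859 and 7206, a 3.45-fold difference.

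Connexins, the channel proteins of gap junctions, had opposite signs in PANC1. GJA1, encoding connexin 43, was at 1.40 ± 0.10 in the authors' deposited table, and GJB2, encoding connexin 26, at -2.10 ± 0.16 (Wald test adjusted p = 2.27e-46 and 2.47e-38). In the authors' deposited table for KPC the same genes were at 0.14 ± 0.19 and 0.33 ± 0.91, and neither was called. EPCAM was at 0.97 ± 0.10 and CTNND1, the p120 catenin that holds cadherins at the membrane, at -0.38 ± 0.12 in the authors' deposited table for PANC1.

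Both models were set side by side for the 40 members tested in each, with no sample shared between them. Called in each model were 8 of the 40 members, where 7.61% of the 12777 symbols tested in both were, 3.26% with the same listed sign and 4.35% with opposite signs. DSG2 (1.27 ± 0.21 in KPC and 0.57 ± 0.09 in PANC1), DSC2 (1.68 ± 0.34 and 1.05 ± 0.15) and CLDN4 (-1.99 ± 0.28 and -0.12 ± 0.05) had the same listed sign in the authors' deposited tables. TJP3 (2.33 ± 0.43 in KPC and -1.14 ± 0.36 in PANC1), PERP (1.00 ± 0.31 and -1.79 ± 0.06), PATJ (0.55 ± 0.19 and -0.55 ± 0.07), DSC3 (-1.91 ± 0.64 and 2.51 ± 0.32) and EPCAM (-1.14 ± 0.28 and 0.97 ± 0.10) had opposite signs in the authors' deposited tables. Since it is not stated whether both tables have the same kind of group as numerator, the sign of any 1 gene cannot be compared between models. Whichever it is, DSG2 and DSC2 on the one hand and TJP3, PERP, PATJ, DSC3 and EPCAM on the other had opposite relations between the models in these calls. The KPC calls of Perp, Patj and Dsc3 were lost after subtraction of the level trend, and those of Perp and Patj after recentring, so TJP3 and EPCAM were the opposite-sign genes called in each model under both settings. The PANC1 call of CLDN4 was lost under both settings, so DSG2 and DSC2 were the same-sign genes called in each model under both.

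The difference between models was tested for each gene as the KPC log2 fold change minus the PANC1 one over their combined SE, with Benjamini-Hochberg adjustment over the 12777 symbols. Read with the signs as listed, 20 of the 40 members differed, against 34.9% of all symbols. With the sum in place of the difference, which holds if the tables have opposite numerators, 18 of 40 passed, against 30.0%. The 13 members that passed both tests, where 13.4% of symbols did, differed in size whichever way the tables run. They include CGNL1 (0.45 ± 0.19 in KPC and -2.69 ± 0.24 in PANC1 in the authors' deposited tables), CGN (0.11 ± 0.26 and -1.54 ± 0.14), JUP (0.39 ± 0.24 and -1.38 ± 0.07), CLDN6 (-0.66 ± 0.26 and 3.12 ± 0.53) and GJA1 (0.14 ± 0.19 and 1.40 ± 0.10). CLDN4 passed both with the larger fold change in KPC.

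**Figure D4:**
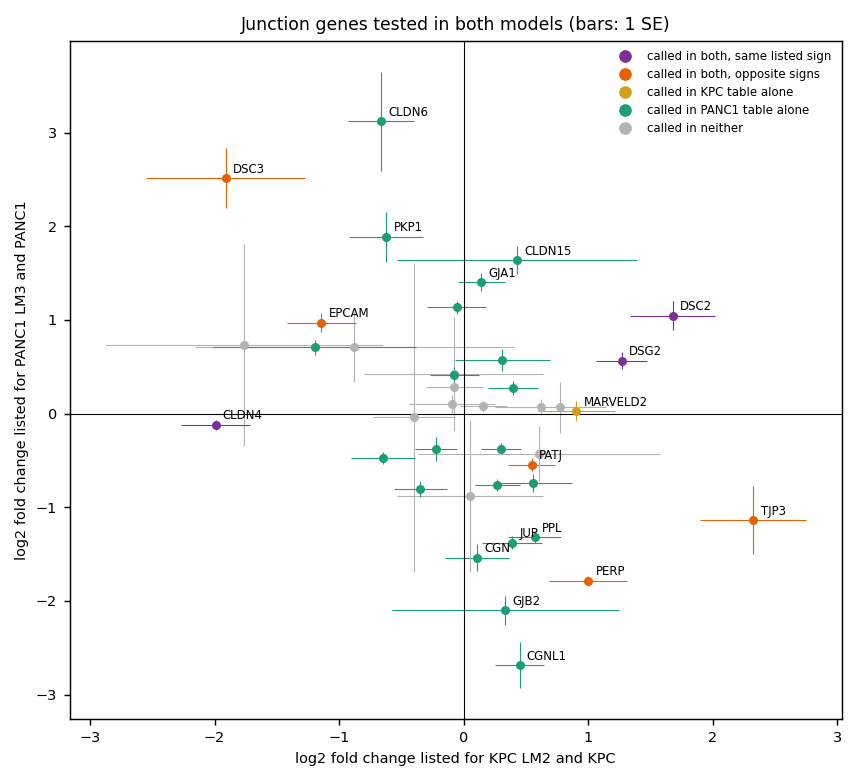
Listed log2 fold change in PANC1 (vertical) against that in KPC (horizontal) for the 40 members tested in both tables, with bars of 1 SE and colours by call. DSG2 and DSC2 lie at the upper right, TJP3, PERP and PATJ in the lower right, and DSC3 and EPCAM in the upper left.

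Junction-related genes outside the members were read from 7 lists of 92 symbols. In KPC 11 of 79 tested were called, 8 positive and 3 negative, or 13.9% against 10.4% of all genes. The catenin gene Ctnnb1 was at 0.77 ± 0.24 and the vinculin gene Vcl at 0.55 ± 0.16 in the authors' deposited table for KPC, while Cdh1 was at 0.27 ± 0.23 and not called. Wald test adjusted p-values were 0.025 for Ctnnb1 and 0.010 for Vcl, and KPC genes at 64 or more had a median of 0.22. The transcription factor gene Grhl2, an activator of Cldn4 and Cdh1 in mouse epithelium, was at -1.58 ± 0.35 with 56.9, Elf3, an epithelial ETS factor, at 1.09 ± 0.27, Klf4 at 0.86 ± 0.24, and Twist1, which represses E-cadherin, at 2.23 ± 0.39, all in the authors' deposited table. The epidermal connexin gene Gjb5 was at 1.46 ± 0.40, the polarity gene Pard3b at 0.62 ± 0.22 and the desmocollin gene Dsc1 at -2.90 ± 0.93 in the authors' deposited table. Dsc1 averaged 11.8 normalised counts, in the range below 16 where KPC genes had a median of -1.43. The Wald test adjusted p was 0.026 for Dsc1 and 0.043 for Pard3b. Calls outside the members were not read after recentring or subtraction of the level trend.

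In PANC1 38 of the 68 such genes tested were called, 18 positive and 20 negative, or 55.9% against 52.5% of all genes. The adherens junction list stood on the negative side, with 7 of 9 tested called negative and 0 positive, where 26.5% of all genes were called negative. E-cadherin, CDH1, was at -3.92 ± 0.10 with 1255 mean normalised counts, NECTIN3 at -0.85 ± 0.12 and VCL at -0.61 ± 0.06 in the authors' deposited table. Of 11 polarity genes tested, 3 were called positive and 3 negative, or 54.5% called. LLGL2, the epithelial lethal giant larvae homologue, was at -3.13 ± 0.10 and DLG1 at -0.55 ± 0.07, while LIN7B was at 0.81 ± 0.27, PARD6A at 0.57 ± 0.20 and LLGL1 at 0.28 ± 0.10, in the authors' deposited table. Of 17 other tight junction genes tested, 7 were called positive and 3 negative, or 58.8% called. The adhesion molecule gene CLMP was at 2.78 ± 0.19 and the tricellular junction gene LSR at -0.62 ± 0.11 in the authors' deposited table. Of 13 transcription factor genes tested, 5 were called positive and 4 negative, or 69.2% called, with epithelial factors on both sides. ELF3 and GRHL3 were at -3.67 ± 0.09 and -1.94 ± 0.14, KLF5 at 1.49 ± 0.34, and the E-cadherin repressor genes ZEB2 and ZEB1 at 3.84 ± 0.51 and 0.34 ± 0.07, in the authors' deposited table. ZEB2 and KLF5 averaged only 27.3 and 30.2 normalised counts, so their values rest on few reads. The duct keratin gene KRT19 was at -3.79 ± 0.05 in the authors' deposited table for PANC1.

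**Figure D5:**
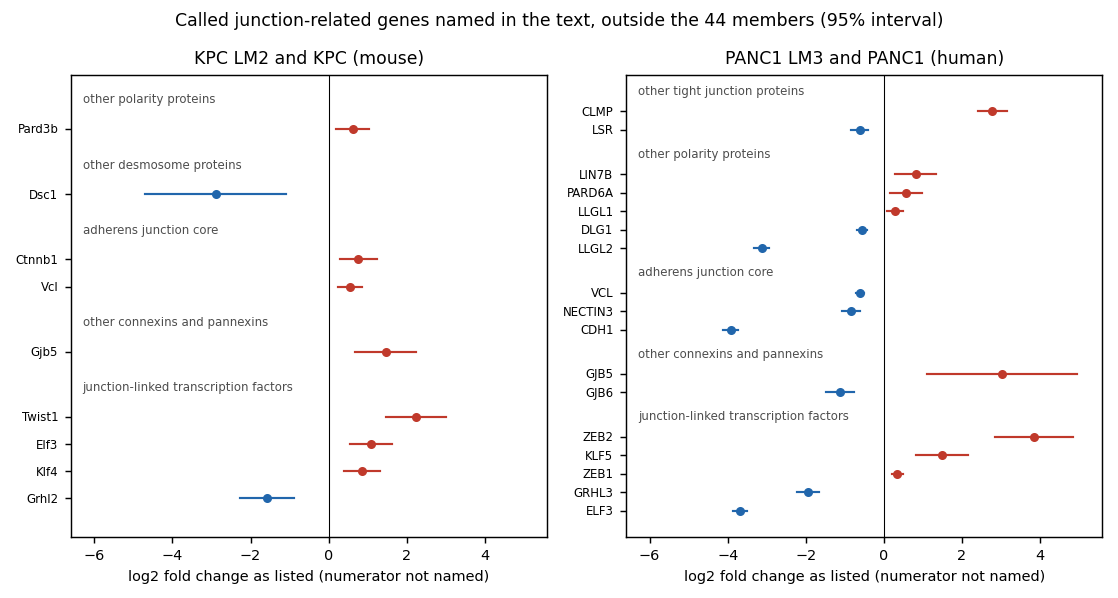
Listed log2 fold changes (points) with 95% intervals (lines) of called junction-related genes outside the members that the text names, 9 in the KPC table (left) and 17 in the PANC1 table (right), by list. In PANC1 the 3 adherens junction genes shown lie left of 0, with CDH1 farthest.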

How the data were processed

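RNA from 12 samples was prepared with a TruSeq RNA kit, version 2, per the labels' protocols. STAR 2.7.6a, featureCounts 2.0.0, MultiQC 1.9 and DESeq2 1.24, with builds mm39 and hg19, are named in the submitters' processing notes; settings, annotation and model design are not given in the sources used here. Per the file headers, the authors deposited for each gene a mean normalised count (a signal read as counts divided by size factors), a log2 fold change with its SE, the Wald score, a p-value and an adjusted p-value. The deposited score equalled the log2 fold change over its SE within 9.2e-08, and the adjusted p-value a Benjamini-Hochberg adjustment within 2.5e-06. A signed negative log10 p was deposited and not used. A count test as planned was not possible, since no column holds a value per library. An adjusted p was listed for 20050 KPC and 17838 PANC1 genes. Cldn5 and Cldn10 had none in KPC.

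Implied group levels were computed from the mean and the fold change, taking the fold as the ratio of 2 group means over 3 libraries each, and are approximate. Members called in either table are named, with others as contrasts. Outside the members the rule allowed up to 3 called genes per list, table and sign with the smallest adjusted p, of which some are not reported here. The uncalled contrast there (Cdh1) and the marker genes were chosen after their values were seen. Members and lists were chosen with earlier results of these data known. Replicates are called biological in the labels, with no word on separate animals. The kit does not keep strand, so overlapping genes cannot be told apart. The steps were tested on simulated data. Computation used scipy 1.17.1, numpy 2.4.6 and pandas 2.3.3 under Python 3.11.15, and drawing used matplotlib 3.10.9.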

Additional observations from a re-analysis of the deposited data

Results flagged for a closer look

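With signs as listed, 20 members had a KPC log2 fold change that differed from the PANC1 one, by the difference over its combined SE with adjustment over 12777 symbols, of which 34.9% passed. Differences are KPC minus PANC1 on the log2 scale, from the authors' deposited tables, and their reading as a difference between models needs the same kind of numerator in both. Among tight junction genes they were 3.46 for TJP3, 3.13 for CGNL1, 1.64 for CGN, 1.03 for F11R, 0.88 for MARVELD2 and 1.09 for PATJ. The claudins CLDN6, CLDN4 and CLDN12 had differences of -3.79, -1.87 and -1.19. Among desmosomal genes they were -4.43 for DSC3, 0.70 for DSG2, -2.51 for PKP1, 1.89 for PPL, 1.77 for JUP, 1.30 for EVPL, 0.68 for PKP4 and 2.79 for PERP. EPCAM was at -2.12, and the connexin genes GJB2 and GJA1 at 2.44 and -1.26. With the sum in place of the difference, 13 of these 20 passed, and EPCAM, PATJ, DSC3, TJP3, GJB2, EVPL and PKP4 did not. After recentring 19 members differed, and 19 after subtraction of the level trend. The KPC call of Marveld2 was lost under both settings. Gjb2 averaged only 6.22 normalised counts in KPC, with an SE of 0.91.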

How the results depend on the processing

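No paired analysis was possible because the tables hold no value per library, and for the same reason no replicate was left out in turn. Of KPC members 7 were called positive: 4 at an adjusted p under 0.01, 4 with an absolute log2 fold change over 1, 4 after recentring and 4 after subtraction of the level trend. The 3 negative KPC calls became 6 after recentring. In PANC1 the 13 positive calls became 7 and the 16 negative calls 8 with an absolute log2 fold change over 1. All other counts, including those of members that differed between models, stayed within 1.5 times. Signs turned for uncalled members alone. After recentring KPC values were -0.11 (Cgn), -0.17 (Cldn18), -0.076 (Gja1) and -0.061 (Tjp1). After the level trend was subtracted they were -0.15 (Cgn), 0.77 (Cldn11), 0.77 (Dsg3), -0.11 (Gja1), 1.11 (Marveld3) and -0.050 (Tjp1), and CLDN3 in PANC1 was at -0.057. The cause was not tested. Members with a mean normalised count under 64, 13 in KPC and 11 in PANC1, have wide errors.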

Other observations

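Several junction genes are neighbours in the mouse genome by RefSeq annotation of GRCm38.p6, with no protein-coding gene between them, and of 5 such pairs 3 had opposite listed signs in KPC and 2 the same sign. Cldn3 and Cldn4 adjoin each other, and the authors' deposited table gave 0.77 ± 0.37 for Cldn3, which was not called, and -1.99 ± 0.28 for Cldn4. Dsc2 and Dsc3 also adjoin, with intervals of 1.01 to 2.35 and -3.16 to -0.66 in the authors' deposited table. Dsg2 and its neighbour Dsg3 had intervals of 0.86 to 1.68 and -1.57 to 0.85 in the authors' deposited table. Dsc3 and Dsg3 averaged 16.4 and 13.0 normalised counts. After the level trend was subtracted, Dsc3 was at -0.99 and no longer called, and the uncalled Dsg3 turned to 0.77. The share of opposite signs over all adjoining gene pairs is not given here. Cldn6 and Cldn9, which adjoin as well, were both listed as negative, at -0.66 ± 0.26 and -1.77 ± 1.12 in the authors' deposited table, and neither was called. Ocln and Marveld2 adjoin and were both listed as positive, at 0.63 ± 0.37 and 0.91 ± 0.31 in the authors' deposited table, of which Marveld2 alone was called. The difference between neighbours was not tested, since the tables give no covariance between genes.

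The connexin gene GJB5 of PANC1 had a log2 fold change of 3.03 ± 0.98 by the authors' deposited table, from a mean normalised count of 5.30, while GJB6 was at -1.12 ± 0.18.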
